A study of Mus musculus with 5 samples.

Results

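The cytosolic ribosome is built from ribosomal RNA and a fixed set of ribosomal proteins, those of the large 60S subunit named Rpl and those of the small 40S subunit named Rps. Their genes are transcribed together in nearly every cell, and their messenger RNAs begin with a pyrimidine tract through which growth signals control their translation. Lymphocytes that prepare to divide raise ribosome synthesis, and several ribosomal proteins have paralogs, named with an l or l1 ending, that can take the place of the parent protein in some tissues.

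Members were the gene IDs whose mouse symbol was Rpl or Rps with a number and an optional letter or l ending. Rplp0, Rplp1, Rplp2 and Rpsa were added, and symbols with the pseudogene mark -ps and the S6 kinases were left out. This gave 86 of 27179 gene IDs, 54 of the 60S and 32 of the 40S subunit, of which 10 carried an l or l1 ending. Among them, RefSeq lists Rpl6l as a pseudogene and Rps4l as a transcribed pseudogene. The filter on low counts kept 84 of the 86, leaving out Rpl10l, which had no count in any library, and Rpl6l, which had 0 counts in ILC3 and 3 and 1 counts in CD4 T cells. RNA was sequenced from ILC3, which are group 3 innate lymphoid cells (3 libraries, sorted for CD45, CD127 and a GFP reporter of the transcription factor RORγt and against CD3), and from CD4 T cells (2 libraries, sorted for CD45, CD3 and CD4). Both came from wild type C57BL/6 mice, 3 in number. Age and tissue of origin were not given in the sources used here, nor whether libraries of one number came from one mouse, so the p-values cover the spread among these libraries and part of that spread may be technical. The libraries held between 15123715 and 25956023 counts over all genes.

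The sorted populations matched their labels in part. All 8 ILC3 markers were higher in ILC3, with summed levels of 24052 to 26195 counts per 1000000 counts (CPM) in ILC3 and 119 to 317 CPM in CD4 T cells. Of 10 CD4 T cell markers 5 were lower in ILC3, with summed levels of 769 to 1482 CPM in ILC3 and 1406 to 3929 CPM in CD4 T cells. The other 5 were not called, among them Trbc1, Trbc2 and Cd3g, which made up most of the ILC3 sum. Trbc1 went the other way, at 359, 338 and 240 CPM in ILC3 and 35.3 and 237 CPM in CD4 T cells. Trbc2 had a mean of 301 CPM in ILC3 and 217 in CD4 T cells. Cd3g had 361, 470 and 160 CPM in ILC3, which were sorted against CD3, and 279 and 1308 CPM in CD4 T cells. Of the markers of plasmacytoid dendritic cells, 7 of 8 were lower in ILC3, with sums of 255 to 673 CPM in ILC3 and 3950 to 4657 CPM in CD4 T cells. Of the myeloid markers, 7 of 12 were lower and 1 was higher in ILC3, and Clec10a was at 0 in ILC3. They summed to 3711 to 4124 CPM in ILC3 and 6906 to 7777 CPM in CD4 T cells. Most of the ILC3 sum was Fcer1g, which was not called, at a mean of 3205 CPM in ILC3 and 1818 in CD4 T cells. The sums therefore do not describe the other myeloid markers, of which Tyrobp had a mean of 151 CPM in ILC3 and 3269 in CD4 T cells. Plasma cell and B cell markers summed to 18956 to 101849 CPM in ILC3 and 21898 to 35334 CPM in CD4 T cells, where 1 of 11 was lower in ILC3. The 8 epithelial markers summed to 9.51 to 15.1 CPM in ILC3, with Krt8, Fabp2 and Cdh1 at 0, and to 31.6 to 58.3 CPM in CD4 T cells. The part of these other cells in the differences described below was not tested, and in such sorted bulk samples fewer cells of a type and less RNA per cell cannot be told apart.

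Core promoters of some of the genes that differed are shown first, because control of ribosomal protein genes is often discussed through short sequences around their transcription start. Each sequence is the 5′ to 3′ stretch from 70 bases before to 30 bases after the annotated start, from RefSeq in build GRCm38.p6, and capitals mark the letters of a searched motif on either strand. The stretches lie at chr9:120127696-120127795, plus strand for Rpsa, chr17:27635215-27635314, minus strand for Rps10, chr7:118116118-118116217, minus strand for Rps15a, chr10:128626477-128626576, minus strand for Rps26, chr14:24490608-24490707, plus strand for Rps24 (the first of its 2 annotated windows) and chr17:46782627-46782726, minus strand for Rpl7l1. The first 5 genes were lower and Rpl7l1 was higher in ILC3. No stretch is shown for Rpl21, which was also higher in ILC3.
Rpsa: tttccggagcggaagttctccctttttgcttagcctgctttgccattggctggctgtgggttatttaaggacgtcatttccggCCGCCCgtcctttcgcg
Rps10: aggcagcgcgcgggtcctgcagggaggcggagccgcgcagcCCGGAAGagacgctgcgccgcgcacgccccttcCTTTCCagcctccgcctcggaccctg
Rps15a: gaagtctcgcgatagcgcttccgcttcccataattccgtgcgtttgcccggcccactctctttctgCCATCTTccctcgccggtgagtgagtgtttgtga
Rps26: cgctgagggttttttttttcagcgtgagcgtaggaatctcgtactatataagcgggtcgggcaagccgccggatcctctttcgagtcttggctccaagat
Rps24: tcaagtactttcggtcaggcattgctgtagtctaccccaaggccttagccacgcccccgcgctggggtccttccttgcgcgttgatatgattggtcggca
Rpl7l1: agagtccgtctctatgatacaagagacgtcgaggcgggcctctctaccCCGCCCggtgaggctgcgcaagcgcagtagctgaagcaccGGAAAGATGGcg

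The motifs were CTTTCC and CTTTTC, 2 forms of the pyrimidine-rich start of ribosomal protein genes, CCGGAAG for ETS factors, AAGATGG for YY1, GGGCGG for Sp factors and TATAAA for the TATA box. The table of promoters held 76 windows for 64 members. CTTTCC was in 18 of the 76 windows (23.7%) and in 8.97% of all 32851 windows of this length. CTTTTC was in 13.2% of member windows and 6.95% of all windows, and CCGGAAG in 19.7% of member windows and 5.47% of all windows. AAGATGG was in 6.58% against 2.19%, GGGCGG in 31.6% against 23.8%, and TATAAA in 5.26% against 5.23%. Windows of one gene can overlap, and a match is no measurement of binding. The search took either strand and any position in the window, so CTTTCC and CTTTTC matches do not count pyrimidine-rich starts. The Rpl7l1 stretch held the Sp, YY1 and first pyrimidine motifs, the last 2 of which shared bases. Its pyrimidine motif lay on the opposite strand, as GGAAAG, after the annotated start. The Rps10 stretch held the ETS and first pyrimidine motifs, the Rps15a stretch the YY1 motif and the Rpsa stretch the Sp motif, while none of the searched letters were in the Rps26 and Rps24 stretches.

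Ribosomal protein genes took a smaller share of the counts in ILC3 than in CD4 T cells. The 86 genes held 0.841%, 0.613% and 0.681% of all counts in the ILC3 libraries, in order of their number, against 1.74% and 1.17% in the CD4 T libraries. Every ILC3 library was below both CD4 T libraries. The mean share was 0.712% ± 0.117 in ILC3 (SD, n = 3) and 1.45% ± 0.407 in CD4 T cells (SD, n = 2), with an exact two-sided permutation p of 0.2, the smallest that 10 arrangements allow, so that the design cannot reach 0.05. The 95% Wilson intervals of single libraries were narrow (0.837% to 0.844% in ILC3 replicate 1, 1.16% to 1.17% in CD4 T replicate 2) and cover counting error alone.

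**Figure D1:**
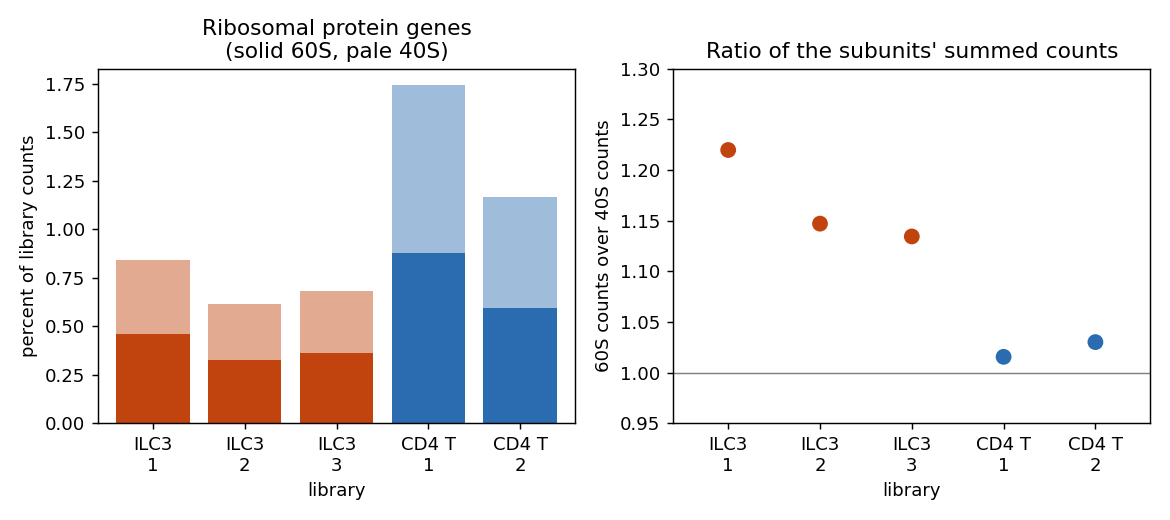
Left, percent of each library's counts in ribosomal protein genes, split into 60S (solid, bottom) and 40S (pale, top) genes, for 3 ILC3 and 2 CD4 T libraries. Right, summed 60S counts divided by summed 40S counts in each library. ILC3 shares lie between 0.613% and 0.841%, below the CD4 T shares of 1.74% and 1.17%. ILC3 ratios lie above the CD4 T ratios, and genes with many counts weigh most in these sums.

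The share depended on what else a library held. Antigen receptor segment genes here are the variable, diversity, joining and constant region genes of immunoglobulins and T cell receptors. They took 6.55%, 29.8% and 24.2% of counts in the ILC3 libraries, against 17.0% and 10.2% in the CD4 T libraries. Outside these genes, the ribosomal protein share was 0.890% ± 0.0158 in ILC3 and 1.70% ± 0.565 in CD4 T cells. The 3 ILC3 libraries thus lay close together and the 2 CD4 T libraries did not. Relative to the TMM-scaled library size, on which CPM are given, the difference was smaller. There the share was 0.813% ± 0.0238 in ILC3 and 1.17% ± 0.309 in CD4 T cells, with CD4 T replicate 2 at 0.954%. Of all counts, both subunits had the lower share in ILC3: 60S genes held 0.384% ± 0.0700 in ILC3 and 0.735% ± 0.202 in CD4 T cells, and 40S genes 0.328% ± 0.0474 in ILC3 and 0.720% ± 0.205 in CD4 T cells. Summed 60S counts were 1.22, 1.15 and 1.13 times the 40S counts in ILC3 and 1.02 and 1.03 times in CD4 T cells. The groups again did not overlap, and the exact permutation p was 0.2. Rpl4 and Rplp0, both 60S genes, held 7.39% and 6.74% of the members' counts in ILC3 and 3.72% and 4.22% in CD4 T cells. The ratio of sums therefore does not describe the 60S genes as a set.

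Gene by gene, 6 of the 84 tested members fell and 2 rose in ILC3 relative to CD4 T cells by edgeR's quasi-likelihood test with an adjusted p under 0.05, and 76 were not called. The 6 that fell were 40S genes, among them Rpsa, Rps10, Rps15a, Rps26 and Rps24, and the 2 that rose were 60S genes (Rpl21 and Rpl7l1). Over all 12747 genes tested, 7.21% were lower and 6.46% were higher in ILC3, so the members' counts were near or below the background. At an unadjusted p under 0.05, 27 members (32.1%) were lower and 4 (4.76%) were higher, beside 17.5% and 15.9% of all genes. The median log2 fold change, ILC3 over CD4 T, was -0.53 over the members, -0.50 over the 52 60S genes, -0.64 over the 32 40S genes and -0.10 over all genes; relative to the summed ribosomal protein counts it was 0.04 over the 60S and -0.14 over the 40S genes. It was below 0 in 58 of 84 members (69.0%) and in 52.6% of all genes. In 47 members every ILC3 library lay below both CD4 T libraries, where 29.6% of all genes did so, in 13 every ILC3 library lay above, where 25.5% of all genes did so, and in 24 the groups overlapped.

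The calls depended on single libraries. Leaving out ILC3 replicate 1, 2 or 3, or CD4 T replicate 1, left 0 members called by edgeR, with 19, 19, 21 and 15 members at an unadjusted p under 0.05 (22.6%, 22.6%, 25.0% and 17.9% of members, beside 28.4%, 27.6%, 29.4% and 22.3% of all genes). By adjusted p, of all genes, 2.8%, 2.96%, 3.81% and 2.22% were lower and 2.18%, 2.17%, 2.6% and 3.65% were higher in ILC3 in these 4 fits. Without CD4 T replicate 2, 25 members were lower and 4 higher, the 8 called before among them, beside 7.02% of all genes lower and 12.5% higher. The median over members was -0.26 without CD4 T replicate 1 and -0.74 without CD4 T replicate 2. CD4 T replicate 1 stood above CD4 T replicate 2 in 59 of the 83 members with counts in both, at a median log2 ratio of 0.49, while that ratio was 0.05 over all genes. Among the ILC3 libraries the median log2 ratios between pairs were 0.06 to 0.13. The scaling decided the counts as well: 21 members were lower and 0 higher by library size alone (11.7% and 3.01% of all genes), under which the median of all genes shifted to -0.59. With the summed ribosomal protein counts as library size, 0 were lower and 1 was higher (3.36% and 5.52% of all genes).

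**Figure D2:**
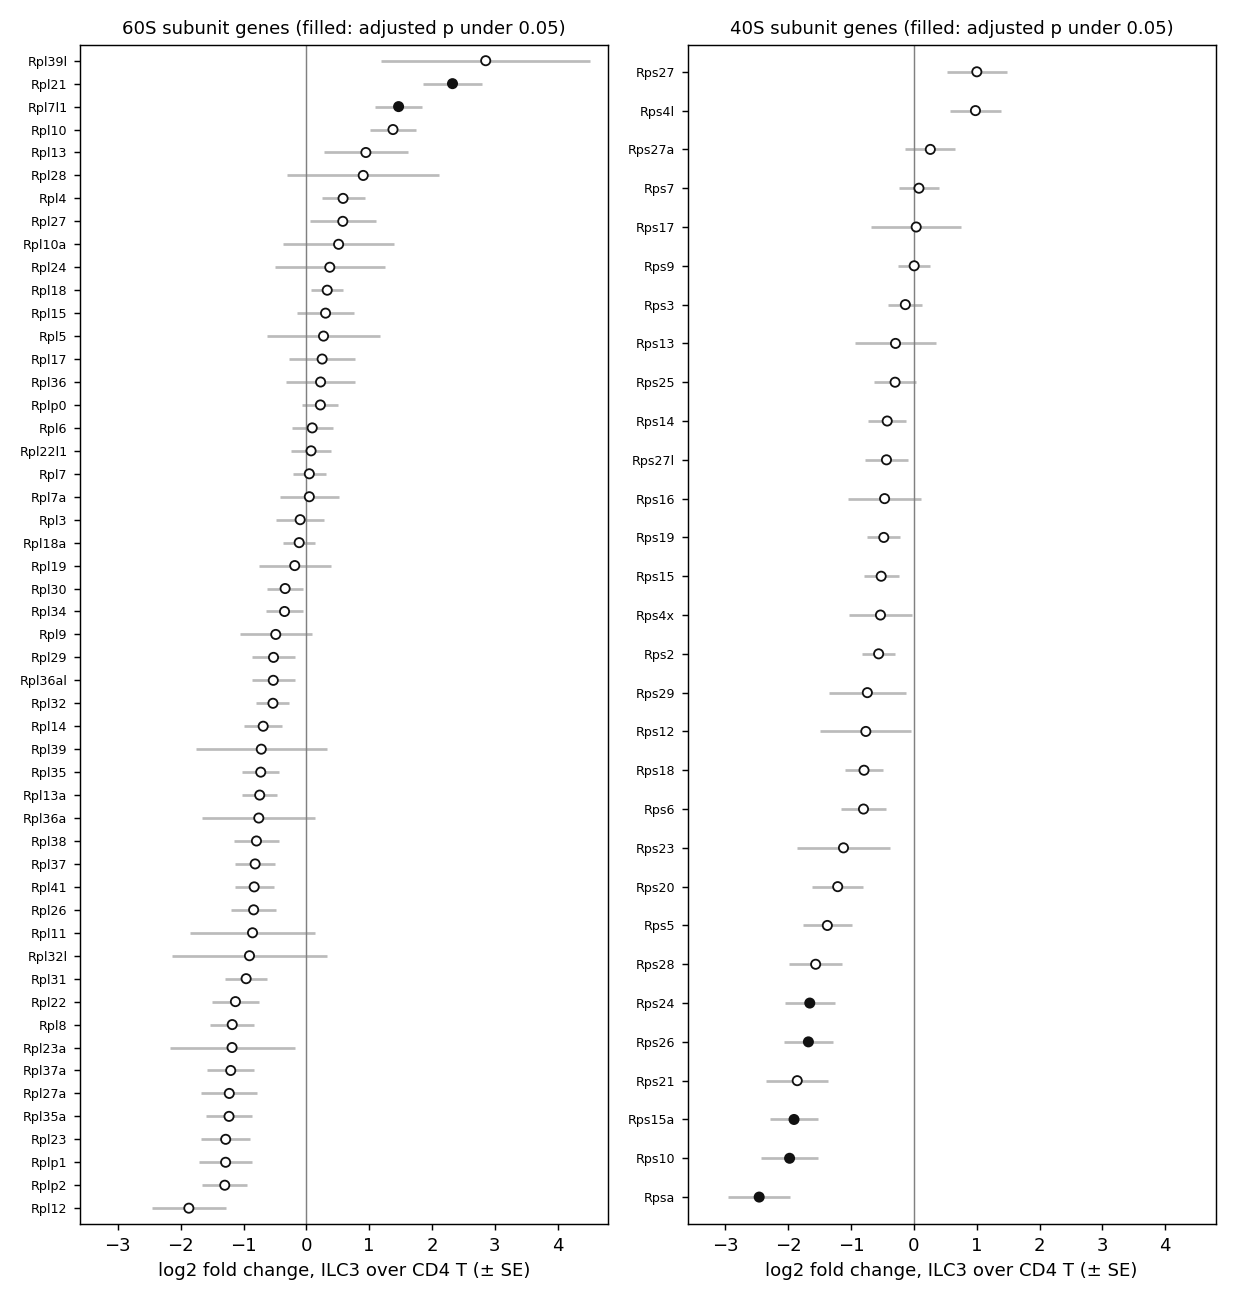
Log2 fold change of ILC3 over CD4 T for tested 60S (left) and 40S (right) genes, with SE as bars, filled where the adjusted p was under 0.05; Rpl3l, with no ILC3 count, is not drawn. The median of all tested members lies at -0.50 for 60S genes and -0.64 for 40S genes, and the 5 filled 40S genes lie below 0 while the 2 filled 60S genes lie above 0.

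Rpsa, a 40S protein that is also known as the precursor of the laminin receptor, had 6.84, 7.16 and 5.95 CPM in ILC3 and 52.4 and 20.9 CPM in CD4 T cells. All 3 ILC3 libraries were low and close to each other, and the CD4 T libraries lay apart. Rpsa fell by 2.46 on the log2 scale (SE 0.49, edgeR adjusted p = 0.025). With CD4 T replicate 1 left out, the value was -1.64.

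Rps10, a protein of the 40S head, had 29.1, 28.0 and 26.8 CPM in ILC3 and 165 and 55.3 CPM in CD4 T cells. The fold change was -1.98 on the log2 scale (SE 0.46, edgeR adjusted p = 0.0384), and with CD4 T replicate 1 left out it was -0.98. The ILC3 libraries differed little, and CD4 T replicate 1 was the high one.

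Rps15a had 56.5, 66.3 and 61.7 CPM in ILC3 and 320 and 140.5 CPM in CD4 T cells, and fell by 1.91 on the log2 scale (SE 0.38, edgeR adjusted p = 0.0261). Rps26, a 40S protein near the exit of the messenger RNA, had 58.5, 65.8 and 70.6 CPM in ILC3 and 292 and 123 CPM in CD4 T cells, and fell by 1.68 (SE 0.40, edgeR adjusted p = 0.0399). For both genes the groups were apart, and the highest value was that of CD4 T replicate 1, without which the log2 value was -1.19 for Rps15a and -0.92 for Rps26.

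Rps24, a 40S protein whose gene is mutated in some patients with Diamond-Blackfan anaemia, had 55.0, 61.1 and 64.7 CPM in ILC3 and 269 and 110 CPM in CD4 T cells, and fell by 1.65 on that scale (SE 0.40, edgeR adjusted p = 0.0431). All 3 ILC3 libraries lay below both CD4 T libraries, and with CD4 T replicate 1 left out the value was -0.87. Relative to the summed ribosomal protein counts, the log2 values of these 5 genes stayed negative, between -1.86 for Rpsa and -1.06 for Rps24, with none called.

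Rpl21, a 60S gene at chr5:146832890-146837032, went the other way. It had 22.5, 23.8 and 23.2 CPM in ILC3 and 3.40 and 5.84 CPM in CD4 T cells, and rose by 2.32 on the log2 scale (SE 0.47, edgeR adjusted p = 0.027). Relative to the summed ribosomal protein counts it was the single member called (log2 2.74, edgeR adjusted p = 0.0365). Over the alternatives its adjusted p ran over 8.9e-06 to 0.103, and the call was lost by library size alone, with the replicate block and without any one library except CD4 T replicate 2. Of its transcript's 50-base windows, 55.5% were shared with transcripts of other genes, and 15 pseudogenes were named after it.

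Rpl7l1, the paralog of Rpl7 that acts in the making of the 60S subunit, had 201, 204 and 149 CPM in ILC3 and 46.6 and 87.0 CPM in CD4 T cells. It rose by 1.47 (SE 0.37, edgeR adjusted p = 0.0481). The groups did not overlap, and CD4 T replicate 1 was the lowest library. The call was lost with upper quartile factors (edgeR adjusted p = 0.0502), by library size alone (0.165), relative to the summed ribosomal protein counts (0.0693), with the replicate block and without any one library except CD4 T replicate 2. The adjusted p ran over 0.00109 to 0.165 in the alternatives.

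**Figure D3:**
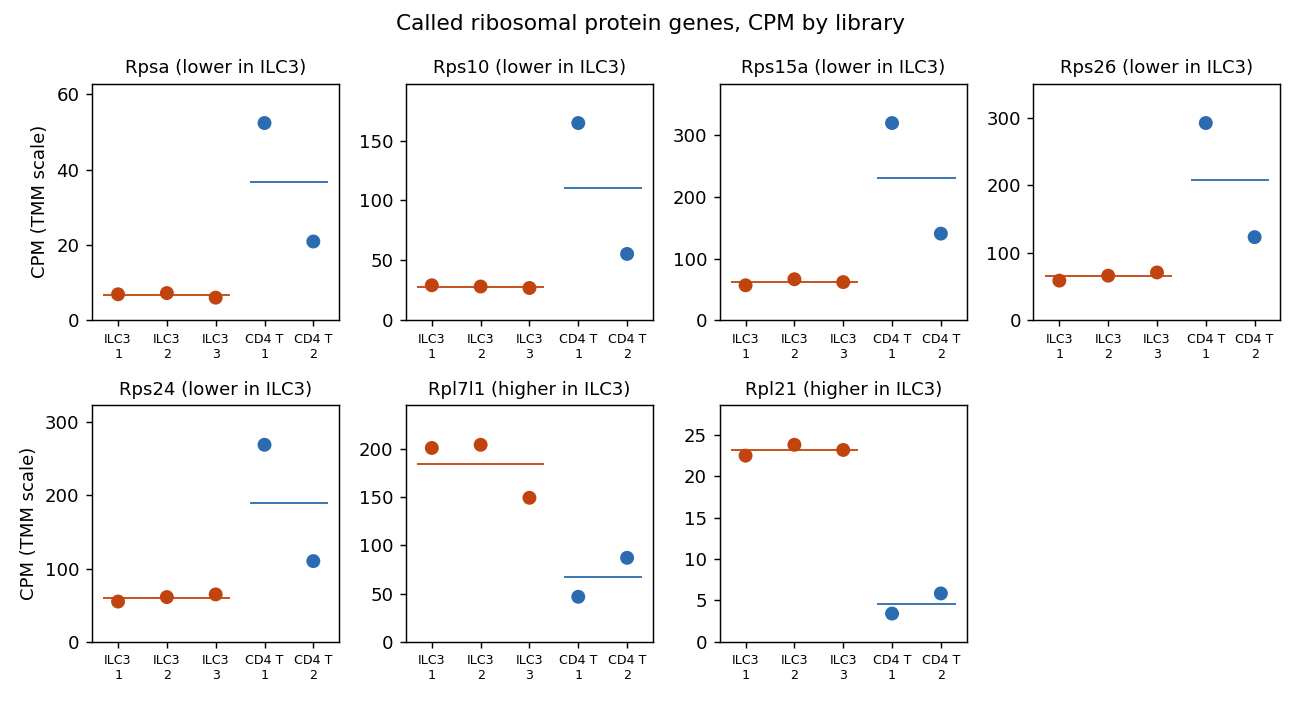
CPM on the TMM scale of 7 called ribosomal protein genes in 3 ILC3 (left, red) and 2 CD4 T (right, blue) libraries, with a line at each group's mean. Rpsa lies between 5.95 and 7.16 CPM in ILC3 and at 52.4 and 20.9 CPM in CD4 T cells, and Rpl21 between 22.5 and 23.8 CPM in ILC3 and at 3.40 and 5.84 CPM in CD4 T cells.

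The proteins of the P stalk, which recruits the elongation factors to the 60S subunit, differed in their values. Rplp0, the anchor of the stalk, had 608, 559 and 472 CPM in ILC3 and 421 and 516 CPM in CD4 T cells (log2 0.22, edgeR adjusted p = 0.641), so the groups overlapped. Its partners Rplp1 and Rplp2 lay lower in every ILC3 library: Rplp1 had 222, 238 and 223 CPM in ILC3 and 801 and 307 CPM in CD4 T cells. Rplp2 had 118, 118 and 117 CPM in ILC3 and 393 and 185 CPM in CD4 T cells. Neither passed the test (edgeR adjusted p = 0.0841 for Rplp1 and 0.0582 for Rplp2). Rpl12, which binds at the stalk's base, had 3.46, 3.77 and 4.26 CPM in ILC3 and 18.2 and 9.84 CPM in CD4 T cells, with a log2 value of -1.87 (edgeR adjusted p = 0.0762).

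Rpl5 and Rpl11, which bind the 5S ribosomal RNA and can inhibit the ubiquitin ligase Mdm2, had few counts. Rpl5 had 77, 56 and 55 counts in ILC3 and 50 and 61 counts in CD4 T cells, and Rpl11 had 52, 37 and 22 counts in ILC3 and 118 and 37 counts in CD4 T cells. Both overlapped between the groups. Rps6, the substrate of the S6 kinases, had 16.3, 17.7 and 20.4 CPM in ILC3 and 37.6 and 25.6 CPM in CD4 T cells (log2 -0.80, edgeR adjusted p = 0.168). Rps27a, made as a fusion with ubiquitin, had 15.2, 17.5 and 21.7 CPM in ILC3 and 15.3 and 14.9 CPM in CD4 T cells, with a log2 value of 0.26 (edgeR adjusted p = 0.696).

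The proportion of paralog to parent lay apart between the groups in 7 of 8 pairs, 5 of which had counts for both genes in every library. Rpl32l and Rpl6l were not set against a parent, so the 8 pairs do not cover all l-ended members. No such share was worked out for other pairs of genes. Of all single genes tested, 29.6% lay below and 25.5% above in every ILC3 library, so lying apart is common with 3 and 2 libraries. Within a library, the level of Rpl7l1 per kilobase of transcript was 1.47, 1.61 and 1.09 times that of Rpl7 in ILC3 and 0.396 and 0.618 times in CD4 T cells. Rpl7 itself had 122, 112 and 122 CPM in ILC3 and 104 and 125 CPM in CD4 T cells, so its groups overlapped. Rpl22l1, the paralog of the RNA-binding protein Rpl22, stood at 1.18, 1.31 and 1.42 times Rpl22 in ILC3 and at 0.490 and 0.743 times in CD4 T cells. Of this pair, the level of Rpl22 was the one apart between groups, at 67.0, 84.5 and 88.3 CPM in ILC3 and 238 and 112 CPM in CD4 T cells (edgeR adjusted p = 0.0873), while Rpl22l1 had 87.5, 123 and 139 CPM in ILC3 and 129 and 91.9 CPM in CD4 T cells.

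Rps27l, which is a target of p53, stood at 11.9, 13.9 and 15.8 times the level per kilobase of Rps27 in ILC3 and at 71.7 and 20.8 times in CD4 T cells. Rps4l, which RefSeq lists as a transcribed pseudogene, stood at 5.87, 4.23 and 3.15 times Rps4x in ILC3 and at 1.49 and 1.58 times in CD4 T cells. Rpl36al stood at 62.2, 73.6 and 73.6 times Rpl36a in ILC3 and at 61.4 and 56.9 times in CD4 T cells. In each of these 5 pairs, which could be tested on the log2 scale, the groups did not overlap, but each exact two-sided permutation p was 0.2, and 0.2 after adjustment over the 5 pairs, the smallest the design allows. Of their 50-base windows, Rpl36a, Rps27 and Rps4x shared 85.5%, 83.6% and 72.2% with other genes. Their paralogs Rpl36al, Rps27l and Rps4l shared 63.3%, 22.4% and 18.0%. Rpl22 went the other way, at 24.5% beside 61.6% for Rpl22l1. Reads from stretches shared between parent and paralog, or with other genes, may have been divided or dropped in counting, which was not tested. The size of a ratio may therefore not be that of the 2 transcripts' levels.

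**Figure D4:**
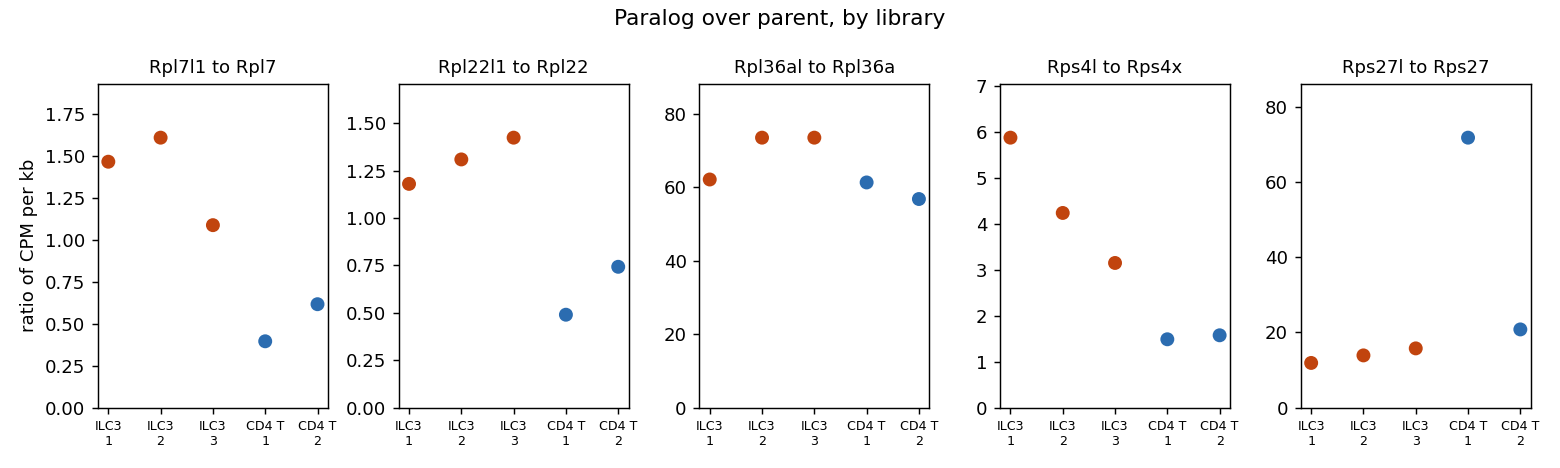
Ratio of paralog to parent level, both in CPM per kilobase of transcript, in 3 ILC3 (left, red) and 2 CD4 T (right, blue) libraries for 5 pairs. Rpl7l1 to Rpl7 lies between 1.09 and 1.61 in ILC3 and at 0.396 and 0.618 in CD4 T cells, and Rps27l to Rps27 lies lower in ILC3.

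Of the other l-ended members, Rpl39l had 227, 157 and 347 counts in ILC3 and 0 and 66 counts in CD4 T cells (edgeR adjusted p = 0.28), and its parent Rpl39 had 39, 19 and 28 counts in ILC3 and 62 and 41 counts in CD4 T cells. Per kilobase, Rpl39l stood at 6.48, 9.19 and 13.8 times Rpl39 in ILC3 and at 0 and 1.79 times in CD4 T cells, without overlap. Rpl3l, the paralog known from striated muscle, had no count in ILC3 and 39 and 77 counts in CD4 T cells. Set against 3 counts over the ILC3 group, its pooled level in CD4 T cells was 53.5-fold higher. That figure allows for counting error in ILC3 alone, and not for the spread among libraries. Rpl3l was not called (edgeR adjusted p = 0.052). Its parent Rpl3 had 19.3, 18.6 and 18.3 CPM in ILC3 and 16.0 and 24.1 CPM in CD4 T cells. Rpl10, parent of the undetected Rpl10l, had 29.2, 30.4 and 40.04 CPM in ILC3 and 11.0 and 14.5 CPM in CD4 T cells, and was not called either (log2 1.38, edgeR adjusted p = 0.0536). Rpl32l had 5, 4 and 6 counts in ILC3 and 14 and 8 counts in CD4 T cells.

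The order of levels among the members was alike in both populations, with a Spearman rho of 0.947 over the 86 genes, given as a description because the genes share libraries. Per kilobase of transcript, Rps14, Rps3 and Rps27l were the highest 3 in ILC3 at 1531, 1262 and 836 CPM, and Rps14 and Rps3 were the highest 2 in CD4 T cells at 2052 and 1385 CPM. Rps14 had 846, 950 and 946 CPM in ILC3 and 1445 and 1005 CPM in CD4 T cells, before division by length. Rps3 had 622, 627 and 602 CPM in ILC3 and 626 and 729 CPM in CD4 T cells, and its groups overlapped. The 5 members with the most counts made up 38.1% of the family's counts in ILC3 and 31.3% in CD4 T cells. The lowest detected members per kilobase in ILC3 were Rpl32l, Rpl5 and Rpl28, of which Rpl28 had 47, 26 and 16 counts in ILC3 and 18 and 15 counts in CD4 T cells.

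Members with much sequence shared with other genes had low levels. A median of 60.8% of a member's 50-base windows also occurred in transcripts of another annotated gene, 55 of the 86 members shared over 50% of their windows, and 320 pseudogenes were named after 64 of them. The 35 tested members that shared over 66% of windows had a median level of 22.2 CPM per kilobase in ILC3 and 22.4 in CD4 T cells, the 33 members between 33% and 66% had 102 in ILC3 and 194 in CD4 T cells, and the 16 members under 33% had 148 in ILC3 and 314 in CD4 T cells. Over the 84 members, the Spearman rho between shared windows and level was -0.36 in ILC3 and -0.34 in CD4 T cells, and that between shared windows and the log2 fold change was 0.19. How reads with several matches were treated is not given in the sources used here.

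**Figure D5:**
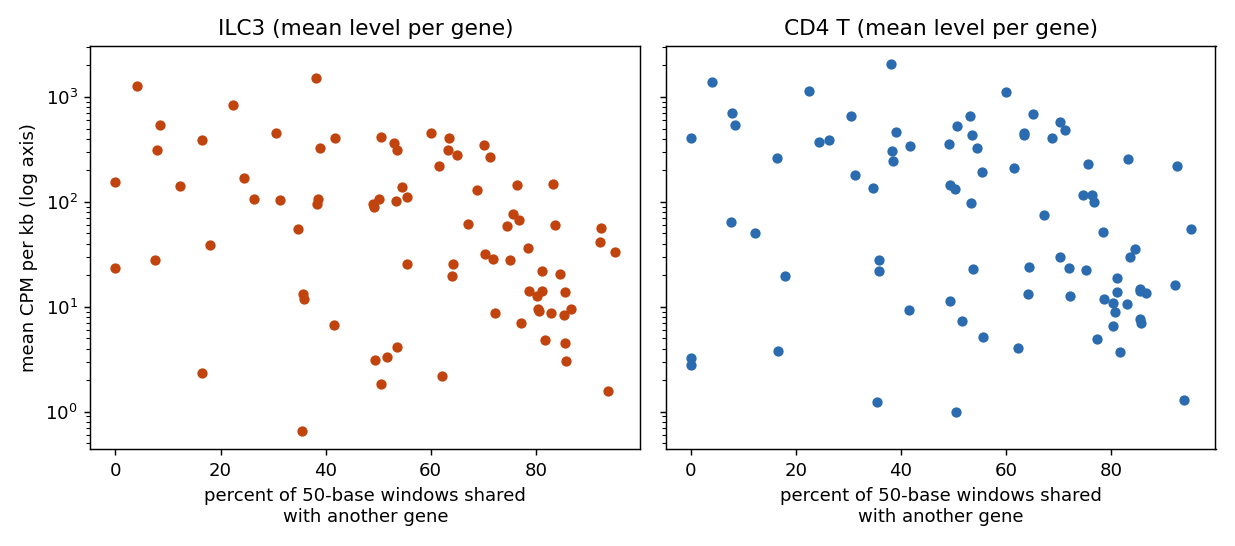
Mean level of each tested member in CPM per kilobase of transcript (log axis) against the percent of its 50-base windows found in transcripts of another gene, for ILC3 (left) and CD4 T cells (right). Members that share over 66% of windows have a median of 22.2 in ILC3 and 22.4 in CD4 T cells; members at 0 are not drawn.

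Other parts of the translation machinery were set beside the ribosomal proteins. Of 3 ribosomal components outside the Rpl and Rps symbols, 1 fell: Rack1, a scaffold protein on the 40S subunit, had 292, 293 and 302 CPM in ILC3 and 1014 and 643 CPM in CD4 T cells (log2 -1.49, edgeR adjusted p = 0.0271). Rps3a1, a 40S protein whose symbol the rule does not take in, was looked up after its values had been seen; it had 111, 117 and 142 CPM in ILC3 and 241 and 172 CPM in CD4 T cells (edgeR adjusted p = 0.124).

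Of 34 translation factors, 3 rose and 1 fell in ILC3, with a median log2 fold change of 0.20. Eif4e, which binds the messenger RNA cap, had 299, 302 and 245 CPM in ILC3 and 42.1 and 108 CPM in CD4 T cells (log2 1.91, edgeR adjusted p = 0.0413). The helicase Eif4a1 had 167, 157 and 143 CPM in ILC3 and 64.0 and 52.9 CPM in CD4 T cells, and Eif1, which acts in start codon choice, rose by 1.31. Eif3f, a subunit of the initiation factor eIF3, fell by 1.43. The factors' summed level was 8301 to 8910 CPM in ILC3 and 5308 to 6106 CPM in CD4 T cells, where that of the ribosomal proteins was higher. The sum holds Eif1 at a mean of 1428 CPM in ILC3 and 574 in CD4 T cells. It also holds Eif5a, which was not called, at 1003 and 229 CPM. Of the 34 factors, 15 lay above and 7 below in every ILC3 library, beside 25.5% and 29.6% of all genes.

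Of 50 tested genes of ribosome biogenesis and RNA polymerase I, 2 rose and 1 fell, with a median of 0.03. Nop58, a core protein of box C/D small nucleolar particles, had 238, 172 and 205 CPM in ILC3 and 50.7 and 44.7 CPM in CD4 T cells, and Ltv1, a 40S assembly factor, rose by 1.71. Ubtf, a factor of RNA polymerase I at ribosomal DNA, fell by 1.66. Of 25 regulators of ribosome synthesis, 1 rose and 1 fell, with a median of -0.20. Larp1, which binds the pyrimidine tract of ribosomal protein messenger RNAs, had 5.04, 8.57 and 2.63 CPM in ILC3 and 31.7 and 26.5 CPM in CD4 T cells (log2 -2.43, edgeR adjusted p = 0.0406). Mycn, a transcription factor of the Myc family, had 56, 21 and 90 counts in ILC3 and none in CD4 T cells.

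Of 77 tested mitochondrial ribosomal proteins, 2 rose (Mrpl45 and Mrpl4) and 1 fell (Mrpl52), with a median of 0.38 against -0.53 for the cytosolic ones. Their summed level was 6289 to 7172 CPM in ILC3 and 5957 to 6808 CPM in CD4 T cells, overlapping between the groups. Of 13 tested host genes of small nucleolar RNAs, whose spliced transcripts often begin with a pyrimidine tract too, 1 rose: Snhg5 had 736, 891 and 1097 CPM in ILC3 and 94.5 and 131 CPM in CD4 T cells (log2 3.01, edgeR adjusted p = 0.00645).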

How the data were processed

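The authors deposited 1 table of raw counts, whole numbers for each gene. The submitters' processing notes name CASAVA 1.8.2 and STAR 2.3.0 with build mm10, and the kit was a Clontech SMARTer Ultra Low Input RNA kit, per the labels' protocols. How reads were counted, with which annotation and on which strand, is not given in the sources used here. Gene IDs were matched to symbols through RefSeq (25275 of 27179). Counts were tested with edgeR 4.0.16 (filterByExpr, TMM scaling, glmQLFit and glmQLFTest in R 4.3.3), with Benjamini-Hochberg adjustment over 12747 genes and a threshold of 0.05. CPM are counts per 1000000 of the TMM-scaled library size, and SE is the log2 fold change divided by the square root of F. Shares and paralog ratios were compared by exact permutation over the 5 libraries (scipy 1.17.1). Transcript lengths are those of the shortest basic protein-coding transcript in GENCODE M21; this rule was settled after the data were seen and after other transcript choices had been tried, and it moves levels per kilobase and shared windows. The test was tried on simulated counts: a first version recovered no changed gene, after which larger changes and a floor on the mean count rate were added, and few of the least changed genes were then called. A member that was not called is therefore not shown to be unchanged. Members, lists, motifs and named genes were chosen with earlier results of these data known. Named genes are the called members, the paralog pairs, members with a set role, the 3 highest and 3 lowest levels per kilobase in each group, and up to 3 called genes per list and direction. Replicate numbers were not taken to pair libraries. Alternatives covered scaling (DESeq2 1.42.0 size factors among them), filters, tools (limma 3.58.1 among them), a replicate block, members and leaving out each library. Some genes that enter the counts and medians are not reported here by name, nor drawn.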

Additional observations from a re-analysis of the deposited data

How the results depend on the processing

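The counts of called members moved with the setting, and the family's median stayed below 0. With the summed ribosomal protein counts as library size, the scaling itself holds that median near 0, so its sign there shows nothing. Against 2 members higher and 6 lower, upper quartile factors gave 1 higher (6.21% of all genes higher), library size alone 0 higher and 21 lower, the summed ribosomal protein counts as library size 1 higher and 0 lower, leaving out the antigen receptor segment genes 12 lower (8.95% of all genes), no filter 16 lower (7.72%), DESeq2's Wald test 23 lower (14.6%), limma-voom 12 lower (11%), and leaving out the members with l and l1 endings 1 higher. With the replicate block, 0 members were higher and 0 lower (1.69% and 2.39% of all genes), 13 having an unadjusted p under 0.05 (15.5% of members, beside 22.9% of all genes); the same-numbered libraries' deviations correlated at -0.05 and -0.04, so the numbers are not shown to pair them. Leaving out 1 library gave 0 to 4 members higher and 0 to 25 lower. The median log2 fold change of -0.53 was -1.04 by library size alone, -0.019 relative to the summed ribosomal protein counts, and -0.74 to -0.26 with 1 library left out. The share difference of -0.743 percentage points kept its sign in each alternative tried, and relative to the TMM-scaled library size it was -0.359. Since every ILC3 share lay below both CD4 T shares, leaving out a library could not have changed that sign.

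Of 35 named members, 17 of the values under alternatives changed sign, each for a gene that was not called. By library size alone these were -0.44 for Rpl7, -0.46 for Rpl22l1, -0.26 for Rplp0, -0.24 for Rpl5 and -0.25 for Rps27a. Relative to the summed ribosomal protein counts they were 0.33 for Rpl3, 0.025 for Rpl36al, 0.11 for Rps27l, 0.10 for Rps14 and 0.32 for Rps3. With the replicate block Rpl22l1 was at -0.073. With 1 library left out, Rpl3 ran over -0.36 to 0.24, Rpl7 over -0.072 to 0.20, Rpl22l1 over -0.14 to 0.35, Rps27l over -0.76 to 0.0072 and Rpl5 over -0.044 to 0.70. The causes were not tested. Few calls with 2 libraries in 1 group do not show that members did not differ.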
